A study of Arabidopsis thaliana with 6 samples.

Results

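The 9 genes described here encode the clade A protein phosphatases 2C of abscisic acid (ABA) signalling in Arabidopsis thaliana: ABI1, ABI2, HAB1, HAB2, HAI1, HAI2, HAI3, AHG1 and AHG3. They were taken by locus identifier from tables of 32884 genes, and all 9 were present and above 0 in each of the 6 libraries. RNA was sequenced from whole seeds of the Col-0 accession, with 3 libraries of wild type and 3 of hda15-1, a mutant in the histone deacetylase gene HDA15 in the same ecotype. Seeds of both genotypes were soaked for 1 h, given a far-red pulse of 5 min (3.82 µmol per m2 and s) and left without light for 12 h at 22 °C. The labels describe 1 mutant allele and do not say how many plants or seed lots stood behind a library, so a p-value here reflects library-to-library spread, part or all of which may be technical. Values are FPKM, fragments scaled to transcript length and to the mapped reads of the library.

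Clade A phosphatases are the negative regulators at the head of ABA signalling. Without the hormone they bind SnRK2 kinases and keep them dephosphorylated and inactive. When ABA is present, receptors of the PYR/PYL/RCAR family close over the hormone and dock on the phosphatase, the kinases are released, and they phosphorylate transcription factors such as ABI5 that hold back germination. AHG1 and AHG3 act mainly in seeds, where both are bound by the dormancy protein DOG1. The series title pairs HDA15 with PIF1, a phytochrome-interacting transcription factor, as repressors in dark-held seeds, and the comparison asks which transcripts differ when HDA15 is lost.

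A conserved tryptophan of these enzymes inserts into the closed gate of the receptor, and AHG1 is known to lack it and to resist inhibition by the receptors. The coding DNA at that place is shown for all 9 genes because it separates AHG1 from the rest. It was read 5′ to 3′ along the coding strand from the TAIR10.1 reference by aligning each coding sequence to HAB1, and the capitals mark the codon aligned to the tryptophan codon of HAB1, which is codon 385 there.
ABI1: aaagtgattcagTGGaatggagctcgt
ABI2: aaagtaatccggTGGaacggggctcgt
HAB1: aaagttatacaaTGGcaaggcgcacgt
HAB2: aaagttatacaaTGGcaaggcgctcgt
HAI1: cgtgttatctacTGGgatggcccacgt
HAI2: cgagtgatatacTGGgacggtgcaaga
HAI3: cgagtcatatatTGGgactgtccaaga
AHG1: cgagttttagtaGTGgatggagctaga
AHG3: cgagttatatatTGGgatggagctagg
The codon was TGG, which encodes tryptophan, in 8 of the 9 genes. In AHG1 it was GTG, at codon 290 of its longest annotated coding sequence, on chromosome 5 within 21027903 to 21027929 of the plus strand.

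The target gene was checked first, and it followed the labels. HDA15 (AT3G18520) gave 16.1, 13.0 and 14.8 FPKM in wild-type libraries, against 0.338, 0.651 and 0.417 in those of hda15-1. The difference passed the test over all genes, with a log2 fold change of -3.41 ± 0.18 (SE) on the log2(FPKM + 1) scale and a limma adjusted p of 3.79e-04. Since the mutant values lie below the pseudocount, the size depends on it, at -4.73 with a pseudocount of 0.1 and -1.84 with 5, and the mutant mean in FPKM was 0.0320 of that of wild type. Of the seed markers, CRA1, a cruciferin storage protein gene, ranged from 16745 to 33309 FPKM, the embryo genes SCR and STM from 12.4 to 15.7 and from 0.305 to 1.84 FPKM, and the endosperm gene EPR1 from 6644 to 11272 FPKM. Another endosperm marker, the expansin gene EXPA2, gave 78.6, 17.2 and 19.9 FPKM in wild-type libraries, against 156, 164 and 247 in those of hda15-1. Its groups did not overlap, its mean was 4.90-fold higher in hda15-1, and its adjusted p in limma was 0.223. MAN7, a mannanase gene of the endosperm, had overlapping groups with a mean 1.39-fold higher in hda15-1. The part of such marker differences in the phosphatase levels was not tested. Of the seed coat markers, BAN was listed at 0 in every library and TT10 and TT12 did not exceed 0.0592 FPKM. Of the leaf markers, RBCS1A, which embryos also express, reached 615 FPKM, while CAB3 and LHCB2.2 stayed at or below 1.52 and 0.640 FPKM.

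The phosphatase genes spanned a wide range of levels in dark-held seeds, and 4 of them supplied most of the transcripts. HAI2, AHG1, HAI3 and AHG3 together made up 87.1% ± 1.63 (SD, n = 3) of the summed FPKM of the 9 genes in wild type and 87.0% ± 3.79 (SD, n = 3) in hda15-1. HAI2 (AT1G07430), also named HONSU or AIP1 in the annotation and known as a seed phosphatase that limits ABA signalling, was the highest member and measured 60.0, 59.5 and 69.0 FPKM in wild-type seeds, and in hda15-1 seeds 60.4, 70.7 and 50.6. Its mean level was above that of 85.8% of the 15045 genes tested, those whose mean over the libraries reached 1 FPKM. At the other end, HAI1 (AT5G59220), named for strong induction by ABA in vegetative tissue, had a mean above only 6.73% of those genes. HAI1 had values of 1.43, 1.36 and 2.65 FPKM for wild type, with 1.29, 1.68 and 0.889 for hda15-1. The 3 genes with the HAI name thus included both the highest and the lowest member.

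In wild type the order of mean levels was HAI2, AHG1, HAI3, AHG3, HAB2, HAB1, ABI2, ABI1 and HAI1. Library values of neighbours in that order overlapped for HAB2 and HAB1, for ABI2 and ABI1, and for ABI1 and HAI1. Both genes of a pair are measured in the same library, so such overlap does not show that they were equal. Taken library by library, HAB2 was above HAB1 in each of the 3 wild-type libraries. ABI2 was above ABI1 in 2 of them, and ABI1 above HAI1 in 2. In hda15-1 the order was the same except that ABI1 stood above ABI2, a pair whose values overlapped in both genotypes. Neighbours there were clear of each other only between HAI2 and AHG1, between AHG1 and HAI3, and between ABI2 and HAI1. Even so, HAI3 was above AHG3, AHG3 above HAB2, and HAB2 above HAB1 in each of the 3 hda15-1 libraries taken singly.

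**Figure D1:**
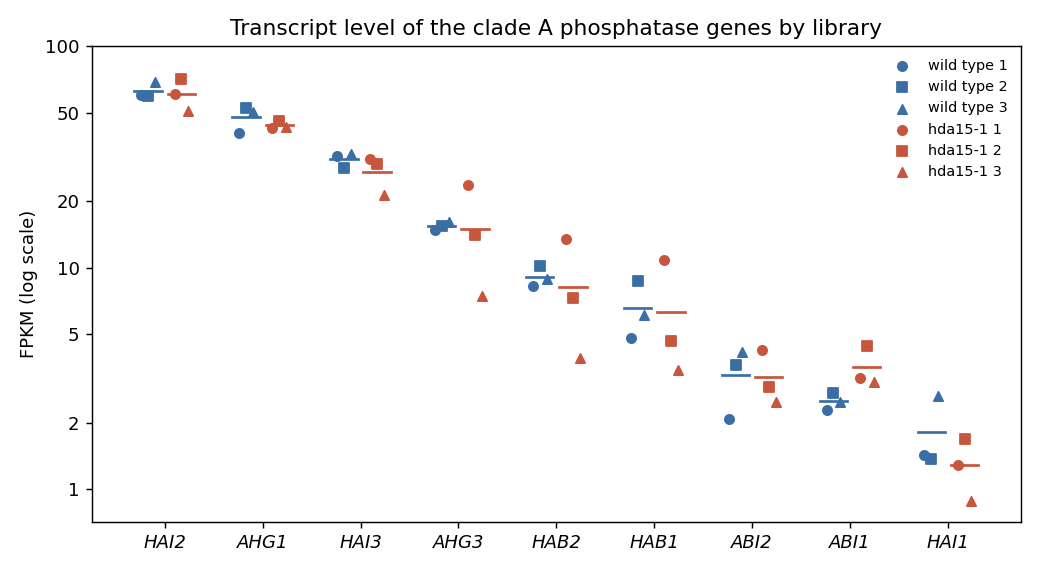
FPKM of the 9 phosphatase genes on a log axis, 1 point per library (blue, wild type; red, hda15-1; symbols mark the replicate number) and a line at each group mean. The levels run from 70.7 FPKM for HAI2 to 0.889 FPKM for HAI1, and the groups overlap in every gene except ABI1.

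None of the 9 genes passed the test of the genotype difference, in limma on log2(FPKM + 1) with Benjamini-Hochberg adjustment over 15045 genes, where 0.219% of all genes passed. The adjusted p was 1.000 for each, and none of the 9 reached an unadjusted p under 0.05, as 4.28% of all genes did. The log2 fold change, which is positive where hda15-1 is higher, was below 0 for 8 members and above 0 for ABI1, with a median of -0.14 over the 9, beside 0.023 over all genes tested, of which 54.4% were above 0. Leaving out hda15-1 3 moved the median of the 9 to 0.11, and leaving out hda15-1 1 moved it to -0.29. The 95% intervals of the log2 fold change all included 0, and 8 of the 9 lay within 1 log2 unit of it. For HAB2, the exception, the interval ran from -1.08 to 0.54. Taken over the 9 intervals, differences as large as 0.473-fold or 1.74-fold on the scale of FPKM + 1 were thus within the error of single genes. These are bulk seeds, so fewer cells of a type and less RNA per cell cannot be told apart in any level given here.

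**Figure D2:**
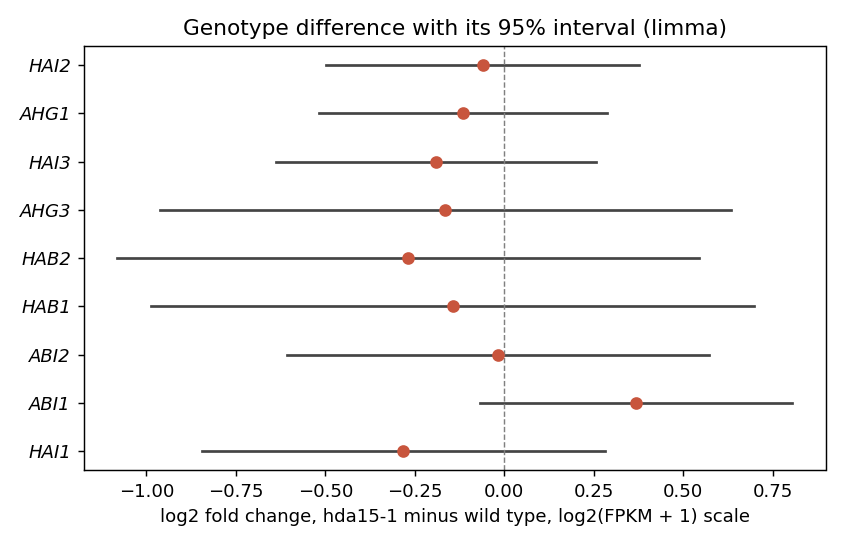
Log2 fold change of each phosphatase gene on the log2(FPKM + 1) scale (points; positive, higher in hda15-1), with its 95% interval from limma (lines). All 9 intervals cross 0, ABI1 alone has its point to the right at 0.37, and HAB1, HAB2 and AHG3 have the widest intervals.

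ABI1 and ABI2 are the pair in which dominant ABA-insensitive mutations were first found. ABI1 (AT4G26080, chromosome 4, 13219915 to 13222376, minus strand) gave 2.29, 2.71 and 2.49 FPKM in wild-type libraries, against 3.18, 4.43 and 3.03 in those of hda15-1. It was the only member whose groups did not overlap, every hda15-1 library lying above every wild-type library, as held for 5.78% of all genes tested. The log2 fold change was 0.37 (95% interval -0.067 to 0.80), with an unadjusted p of 0.0872 and an adjusted p of 1.000 in limma. An exact two-sided permutation test of ABI1 gave p = 0.1, the smallest that 3 libraries against 3 allow. Its values rested on an estimated 44 to 86 reads per library, and 22 bp of its locus overlap AT4G26070 on the opposite strand. ABI2 (AT5G57050), whose coding sequence shares 79.3% of aligned bases with ABI1, measured 2.08, 3.63 and 4.14 FPKM in wild-type seeds, and in hda15-1 seeds 4.24, 2.89 and 2.47. The ABI2 groups overlapped, with a log2 fold change of -0.018 (95% interval -0.61 to 0.57).

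The abundant seed phosphatases AHG1, HAI2 and HAI3 had values that overlapped between genotypes. Their hda15-1 means were 0.916, 0.964 and 0.882 of those of wild type, in that order, and equality of the genotypes was not tested. AHG1 (AT5G51760, chromosome 5, 21026805 to 21029188, plus strand) had values of 40.6, 52.6 and 50.3 FPKM for wild type, with 42.6, 45.6 and 43.3 for hda15-1. Its 3 hda15-1 values all lay inside the wild-type range and differed among themselves by only 1.07-fold. A range among hda15-1 libraries at least this wide was seen in 97.0% of all genes tested, so AHG1 was among the steadiest transcripts in those 3 libraries. Among wild-type libraries AHG1 varied 1.30-fold, and 52.5% of all genes tested had a wild-type range at least as wide. Its log2 fold change was -0.12 (95% interval -0.52 to 0.29), the narrowest interval of the 9. That of HAI2 was -0.061 (95% interval -0.50 to 0.38), and that of HAI3 was -0.19 (95% interval -0.64 to 0.26). HAI3 (AT2G29380) gave 31.8, 28.0 and 32.4 FPKM in wild-type libraries, against 30.9, 29.2 and 21.2 in those of hda15-1. Only hda15-1 3 lay below the wild-type range of HAI3. HAI1 had a log2 fold change of -0.28 (95% interval -0.85 to 0.28) and rested on an estimated 15 to 58 reads per library, the fewest of the 9.

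HAB1, HAB2 and AHG3 differed from the other members in how far apart their hda15-1 libraries lay, and are set together after their values were seen. HAB1 and HAB2 are close relatives of ABI1 that act in seeds and guard cells. HAB2 (AT1G17550) measured 8.29, 10.2 and 8.88 FPKM in wild-type seeds, and in hda15-1 seeds 13.4, 7.26 and 3.92. HAB1 (AT1G72770) had values of 4.79, 8.74 and 6.14 FPKM for wild type, with 10.8, 4.69 and 3.45 for hda15-1. AHG3 (AT3G11410), listed in the annotation as PP2CA, gave 14.7, 15.4 and 16.0 FPKM in wild-type libraries, against 23.5, 14.03 and 7.45 in those of hda15-1. In all 3 genes hda15-1 1 was the highest and hda15-1 3 the lowest of the 6 libraries, so the group means were close while the single mutant libraries stood on both sides of wild type. AHG3 varied 1.09-fold among wild-type libraries and 3.16-fold among hda15-1 libraries, HAB2 1.23-fold and 3.43-fold, and HAB1 1.82-fold and 3.12-fold. A log2 range among hda15-1 libraries as wide as that of HAB2, AHG3 and HAB1 was seen in 3.71%, 3.91% and 5.32% of all genes tested. The libraries of hda15-1 were more spread in general, with a wider range than wild type in 65.2% of genes and in 6 of the 9 members.

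**Figure D3:**
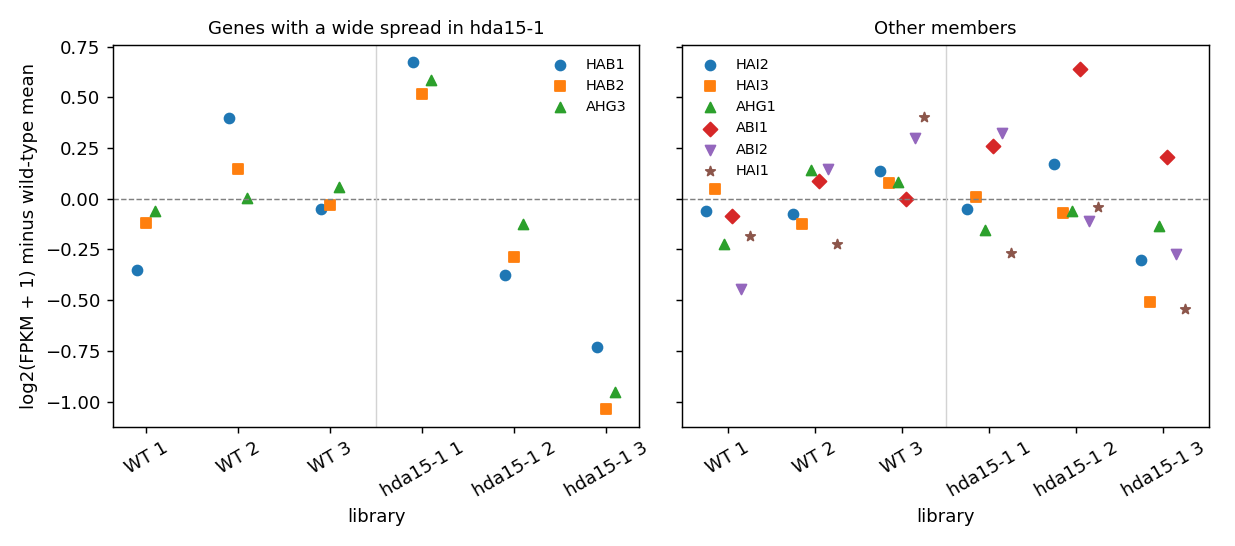
Log2(FPKM + 1) of each phosphatase gene minus its wild-type mean, by library, with HAB1, HAB2 and AHG3 on the left and the other 6 members on the right (WT, wild type). On the left hda15-1 1 lies above 0 and hda15-1 3 below it for all 3 genes, while on the right AHG1 stays near 0 in the mutant and ABI1 lies above 0 in its 3 libraries.

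The ordering of the mutant libraries seen in HAB1, HAB2 and AHG3 was found in some other members and some seed markers. Among the other 6 members, ABI2 and HAI3 had hda15-1 1 highest and hda15-1 3 lowest within hda15-1, an ordering found in 23.3% of all genes tested. HAI1, HAI2 and HAI3 had their lowest value of all 6 libraries in hda15-1 3. With HAB1, HAB2 and AHG3 this held for 6 of the 9 members, beside 20.1% of all genes tested. The embryo markers STM, SCR and PDF1 all followed the ordering, and their summed level came to 61.6, 61.4 and 81.2 FPKM in wild-type libraries, against 103.7, 85.3 and 62.2 in those of hda15-1. The endosperm markers did not all share it. EPR1 was highest in hda15-1 1 and lowest in hda15-1 3 within the mutant, at 11272, 8653 and 7286 FPKM, whereas EXPA2 and MAN7 had the reverse order, MAN7 with 15.9, 19.8 and 31.1 FPKM. The summed level of the 3 reserve and maturation markers CRA1, OLEO1 and EM6 was 29875, 46918 and 29305 FPKM in hda15-1, highest in hda15-1 2. Taken singly, OLEO1 followed the ordering at 9940, 6188 and 4959 FPKM, whereas CRA1 and EM6 were highest in hda15-1 2. The part of tissue composition in the spread of the phosphatase genes was not tested. As for library scale, the upper quartile of hda15-1 1 was 0.984 and that of hda15-1 3 was 1.08 relative to the mean of the 6 libraries. The summed FPKM of all genes was 879239 in hda15-1 1 and 1159520 in hda15-1 3. The part of library scale in the spread was not tested either.

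Promoters were read because PIF1 binds the G-box, CACGTG, PIF proteins also bind the PBE-box, CACATG, and ABA-responsive factors of the ABI5 and ABF family bind elements with the core ACGTG. Within the 250 bases before the annotated start, counted on both strands, the G-box was in 2 of the 9 genes, AHG1 and AHG3, and in 5.90% of such windows of 32536 genes. The PBE-box was in 2 of the 9, HAB2 and AHG1, and in 11.2% of all windows. The core ACGTG was in 6 of the 9, and in 21.8% of all windows. It occurred 4 times for HAI2, 5 times for AHG3, 2 times each for AHG1, HAI3 and HAB2, and 1 time for HAB1. A G-box counts as 2 of these matches, since it holds the core on each strand. The core was not found in the windows of ABI1, ABI2 and HAI1, the 3 members with the lowest levels in both genotypes. A relation between the core and transcript level was not tested. The windows of HAI2 (chr1:2282829-2283078, minus strand), AHG1 (chr5:21026555-21026804, plus strand) and AHG3 (chr3:3585851-3586100, minus strand) are printed from TAIR10.1, 5′ to 3′ toward the gene, since they hold either the most abundant transcript or a G-box. Capitals mark the core and the G-box.
HAI2: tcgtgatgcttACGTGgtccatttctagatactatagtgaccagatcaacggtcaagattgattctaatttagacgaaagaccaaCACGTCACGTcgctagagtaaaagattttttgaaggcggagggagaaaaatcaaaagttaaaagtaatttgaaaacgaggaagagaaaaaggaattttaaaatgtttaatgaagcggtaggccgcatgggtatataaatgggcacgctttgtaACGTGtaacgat
AHG1: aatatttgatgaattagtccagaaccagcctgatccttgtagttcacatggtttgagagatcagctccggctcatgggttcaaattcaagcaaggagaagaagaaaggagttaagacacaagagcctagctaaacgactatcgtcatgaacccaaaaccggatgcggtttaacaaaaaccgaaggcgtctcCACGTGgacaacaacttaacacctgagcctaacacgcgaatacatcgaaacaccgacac
AHG3: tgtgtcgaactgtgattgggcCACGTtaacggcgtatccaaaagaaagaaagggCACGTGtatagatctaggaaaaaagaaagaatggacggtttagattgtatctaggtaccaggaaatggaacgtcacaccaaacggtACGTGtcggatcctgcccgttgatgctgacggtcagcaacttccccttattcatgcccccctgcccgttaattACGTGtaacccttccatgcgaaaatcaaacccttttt
The pair with a G-box held the narrowest profile among hda15-1 libraries, AHG1, and 1 of the 3 widest, AHG3. A match is a string of letters and not a shown binding site.

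The rest of the ABA pathway was read from lists of receptors, kinases, transcription factors, responsive genes and phosphatase partners, and no gene of any of these lists passed the test over all genes. Of the 14 receptor genes, 9 were tested and 7 of these had a log2 fold change above 0, with a median of 0.29. PYL4 measured 14.4, 12.1 and 13.9 FPKM in wild-type seeds, and in hda15-1 seeds 24.6, 29.6 and 31.6. PYL2 had values of 1.79, 1.15 and 1.78 FPKM for wild type, with 2.89, 4.05 and 3.85 for hda15-1. PYR1 gave 36.8, 23.0 and 34.9 FPKM in wild-type libraries, against 39.2, 49.4 and 42.5 in those of hda15-1. For these 3 receptor genes the groups did not overlap, with limma adjusted p-values of 0.114, 0.428 and 1.000 in that order. Groups clear of each other with hda15-1 higher were thus found in 3 of the 9 tested receptor genes and in 1 of the 9 phosphatase genes, beside 5.78% of all genes tested.

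Downstream of the phosphatases, the kinase genes SNRK2.2 and SNRK2.3, which act in seeds, were abundant. SNRK2.2 averaged 74.5 ± 6.10 FPKM (SD, n = 3) without the mutation and 79.6 ± 22.1 FPKM (SD, n = 3) with it, and its highest library was hda15-1 1. SNRK2.3 ranged from 33.5 to 47.2 FPKM among wild-type libraries and from 39.0 to 44.0 FPKM among those of hda15-1. SNRK2.6, the kinase of guard cells, averaged only 1.59 ± 0.0572 FPKM (SD, n = 3) and 1.38 ± 0.178 FPKM (SD, n = 3) in the respective genotypes. The SNRK2.6 groups did not overlap, with hda15-1 lower, as held for 3.43% of all genes tested. None of these 3 kinase genes passed the test.

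Of the 8 transcription factor genes tested, 4 were above 0 and 4 below, with a median of -0.044 that changed sign with single libraries left out. ABI4, an AP2-type factor that restrains germination, gave 7.90, 8.86 and 6.45 FPKM in wild-type libraries, against 14.1, 10.6 and 11.6 in those of hda15-1. These groups did not overlap, but the adjusted p in limma was 0.834. ABF2 averaged 1.84 ± 0.0870 FPKM (SD, n = 3) for wild type and 1.09 ± 0.413 FPKM (SD, n = 3) for the mutant, again with hda15-1 below wild type in all libraries and an adjusted p of 1.000 in limma. AREB3 averaged 37.9 ± 4.99 and 42.2 ± 3.21 FPKM. ABI5, the bZIP factor that arrests germination and is named outside the rule for genes, averaged 111 ± 7.17 and 104 ± 11.6 FPKM.

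Of the 9 ABA-responsive genes tested, 7 were below 0, with a median of -0.075, which was 0.055 without hda15-1 1 and -0.21 without hda15-1 3. AFP1, which encodes a protein that binds ABI5, averaged 4.78 ± 1.38 FPKM (SD, n = 3) for wild type and 3.25 ± 0.293 FPKM (SD, n = 3) for hda15-1. Its groups did not overlap, with hda15-1 lower, and its adjusted p in limma was 1.000. RD29A, a stress-responsive gene, averaged 3.33 ± 0.558 and 2.33 ± 1.06 FPKM, with 1.43 FPKM in hda15-1 3 as its lowest library. AFP3, a relative of AFP1, averaged 8.90 ± 1.34 and 7.92 ± 2.27 FPKM. RD20 and ATHB12 were listed at 0 in all 6 libraries.

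All 6 partners and regulators tested were above 0, with a median of 0.097, beside the 54.4% of all genes on that side, but RGLG1 and PUB12 lay close to 0 at 0.0015 and 0.0031. The median was 0.024 under upper quartile scaling, 0.019 without hda15-1 1 and 0.21 without hda15-1 3. DOG1, the dormancy protein that binds AHG1 and AHG3, gave 2.10, 0.848 and 0.968 FPKM in wild-type libraries, against 2.501, 1.26 and 1.25 in those of hda15-1. Its groups overlapped, and the libraries numbered 1 were the highest of both genotypes. HB6, a homeobox factor that ABI1 binds, averaged 38.3 ± 2.48 and 43.4 ± 3.98 FPKM (SD, n = 3 each). PUB13, a ubiquitin ligase that targets ABI1, averaged 46.7 ± 5.35 and 51.6 ± 10.6 FPKM (SD, n = 3 each).

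**Figure D4:**
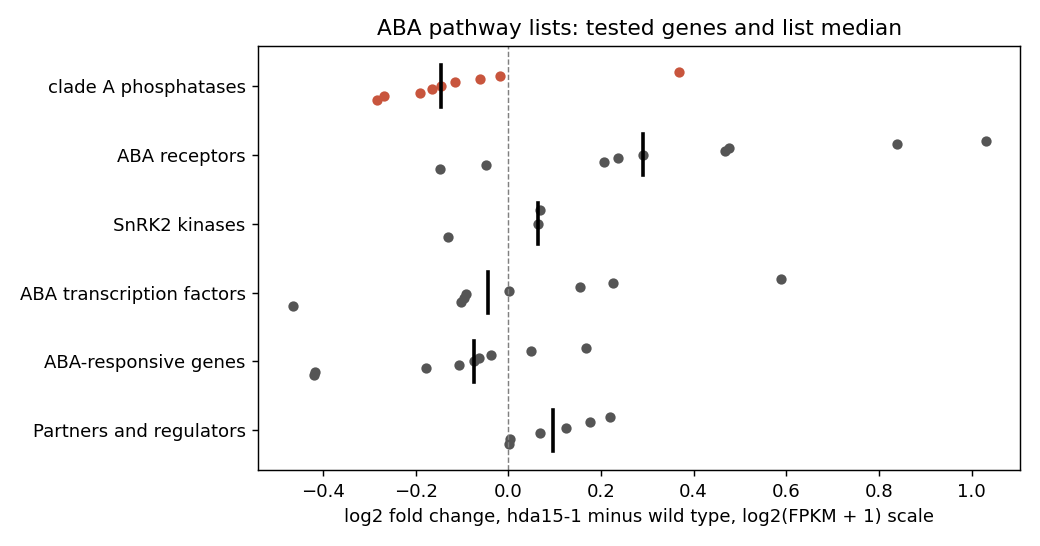
Log2 fold change on the log2(FPKM + 1) scale (positive, higher in hda15-1) of each tested gene (points) in 6 lists of the ABA pathway, with the list median (black bars). The median is -0.14 for the phosphatases (red) and 0.29 for the receptors, and no point passed the test.

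Phosphatase and receptor transcripts were also summed within each library, a quotient that no scaling between libraries can move. The 9 phosphatase genes summed to 166, 182 and 192 FPKM in wild-type libraries, against 190.4, 181 and 136 in those of hda15-1. The 14 receptor genes summed to 113, 115 and 125 FPKM in the former, against 145, 172 and 164 in the latter. The phosphatase sum overlapped between genotypes, whereas each hda15-1 library held more receptor transcript than any wild-type library. The receptor sum includes PYR1, PYL2 and PYL4, whose groups did not overlap, so it is not a result separate from those genes. The phosphatase sum divided by the receptor sum was 1.46, 1.58 and 1.53 in wild type and 1.32, 1.05 and 0.834 in hda15-1. The quotient was therefore lower in all 3 hda15-1 libraries than in any of wild type, at 1.53 ± 0.0594 (SD, n = 3) against 1.07 ± 0.242 (SD, n = 3). It was formed after the single genes had been seen and is given as a description with no test.

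**Figure D5:**
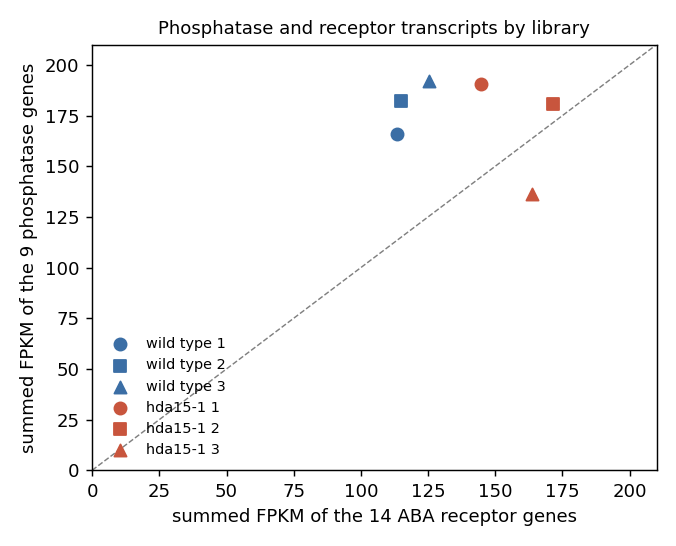
Summed FPKM of the 9 phosphatase genes against that of the 14 receptor genes, 1 point per library (blue, wild type; red, hda15-1), with a dashed line where the sums are equal. The wild-type libraries lie at receptor sums of 113 to 125 FPKM and those of hda15-1 at 145 to 172 FPKM, and hda15-1 3 alone lies below the line.

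ABI1, the member with the smallest p, had its nearest profiles in 3 genes of low level. Likeness was the root mean square distance between log2(FPKM + 1) values over the 6 libraries, each gene centred on its own mean, among 15045 genes. SIP1;2 (AT5G18290), an aquaporin gene, was nearest at a distance of 0.0241, followed by AT2G47440 at 0.0633 and AT3G52680 at 0.0667. Their adjusted p-values in limma were all 1.000, which is not a separate result, since they were picked for their likeness to ABI1. SIP1;2 gave 0.668, 0.876 and 0.691 FPKM in wild-type libraries, against 1.08, 1.77 and 1.02 in those of hda15-1. It thus reached the filter of 1 FPKM only through the hda15-1 libraries.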

How the data were processed

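Each library came as its own FPKM table, made by the authors (unit per the file headers). Bowtie 0.12.2, Cufflinks, Cuffdiff and build TAIR10 stand in the submitters' processing notes. Annotation version, read length and use of strand were not stated in the sources used here. FPKM depends on the transcript length the authors assigned.

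The genotype difference was fitted in limma 3.58.1 (R 4.3.3) to log2(FPKM + 1) with the intensity trend and no covariate. It covered 15045 genes whose mean over 6 libraries reached 1 FPKM. All 9 members passed this filter, which uses the mean over both genotypes. Two-sided p-values received a Benjamini-Hochberg adjustment across these genes, with a threshold of 0.05. The pseudocount of 1 understates changes of low genes. The fit was tested on simulated data.

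Read totals are unknown. From the lowest values, 1 read was estimated to be worth 0.0890 to 0.117 FPKM per 1 kb of transcript. Read numbers given for a gene are estimates from this and its longest TAIR10.1 transcript. Whole reads were not recovered and no count test was run. The longest identical stretch between transcripts of any pair of members was 33 bp, between HAB1 and HAB2.

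Symbols, positions and sequences came from RefSeq TAIR10.1, joined by locus identifier, which matched 32538 of 32884 genes. The members and lists were chosen with earlier results of these data known. From the lists, 2 loci were dropped because the annotation does not hold their names. Named genes were HDA15, all members, up to 3 tested genes of each list with the smallest p, any called list member, and the 3 genes nearest to the member with the smallest p. Markers and the genes said to stand outside this rule are further names. Replicate numbers were not used to pair libraries in the main fit, since the labels do not say whether same-numbered libraries belong together. Deviations from the group means of same-numbered libraries correlated at -0.079, -0.114 and -0.162 across genes. Libraries with different numbers were not compared in this way, so these values cannot decide whether the numbers mark pairs. Alternatives covered the pseudocount, filter, scaling, variance model, a replicate block and libraries left out.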

Additional observations from a re-analysis of the deposited data

How the results depend on the processing

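None of the 9 phosphatase genes passed the threshold in any of the 16 alternative fits that tested it, with limma in each. With a mean of at least 5 FPKM, ABI1, ABI2 and HAI1 were not tested. The sign of the small differences depended on single libraries for 5 members. Leaving out 1 library gave log2 fold changes from -0.24 to 0.13 for ABI2, -0.55 to 0.15 for HAB1, -0.66 to 0.11 for HAB2, -0.18 to 0.060 for HAI2 and -0.54 to 0.23 for AHG3, and the values above 0 of HAB2 and AHG3 came without hda15-1 3. ABI1 stayed above 0, at 0.19 to 0.47 over its 15 alternatives, and HAI1, HAI3 and AHG1 stayed below 0.

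The summed level of the 9 genes in hda15-1 was 0.939 of that in wild type, 0.880 to 1.03 with 1 library left out (1.03 without hda15-1 3) and 0.847 without both libraries numbered 1. The quotient of phosphatase to receptor sums in hda15-1 was 0.699 of that in wild type, and 0.618 to 0.776 with 1 library left out, an alternative added after the data were seen.

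Over all genes, 30 were higher and 3 lower in hda15-1. The number higher was 13 with a mean of at least 5 FPKM, 13 with a replicate block, and 73, with 12 lower, without both libraries numbered 1. With 1 library left out, 8 to 31 were higher and 3 to 5 lower. No scaling moved the median of all genes by over 0.1 on the log2 scale. HAI1 has the least depth behind it, and values of 2.08 to 4.43 FPKM limit ABI1 and ABI2 likewise.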
